A study of Mus musculus with 2 samples.

Results

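The genes described here are 44 components of the DNA replication machinery, from origin licensing through helicase, polymerases and clamp loading to nucleotide reduction. They were chosen by name, not by a rule on their values, although earlier results of these data were known. All 44 were found among the 17216 genes listed in either library, matched from Entrez identifiers to mouse symbols. RNA came from cells of C57BL/6 mice sorted by flow cytometry as LT-HSCs, the long-term stem cells that keep blood formation going for life, with a gate that was negative for lineage markers and CD48 and positive for Sca-1, c-Kit and CD150. Of the 2 libraries, 1 came from wild type littermates and 1 from Ccp3-/- mice, which lack the cytosolic carboxypeptidase CCP3, a deglutamylating enzyme whose gene has the symbol Agbl3. The labels do not give the tissue, or the age, sex or number of the animals, whether cells were pooled, or how far the deletion reached. With 1 library per genotype no test between genotypes was possible, so every difference below is between these 2 libraries, and no value has a replicate check. Pairs of values are given in the order wild type library, knockout-labelled library.

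DNA replication starts from origins that are marked by the origin recognition complex and loaded, before S phase, with the MCM helicase by Cdc6 and Cdt1. Cdc45 and the GINS complex then switch the helicase on, and 3 polymerases copy the unwound strands with the help of the sliding clamp PCNA and its loader. Long-term stem cells are known to rest outside the cell cycle for most of their life, while the progenitors they give rise to divide often. Many replication genes are switched on before S phase by E2F transcription factors.

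Of the 17216 genes, 16532 had a value in the wild type library, and 16318 had one in the other. Values were in FPKM (fragments scaled by transcript length and by library size, so that genes can be compared per length), and the spacing of low values gave an estimated depth of 15.3 and 14.3 M reads. Agbl3 itself was listed at 1.11 and 0.66 FPKM, a ratio of 0.595 with a 95% counting interval of 0.287 to 1.18, so its transcript did not check the genotype label. Cd48, whose protein the gate left out, was listed at 136 and 114 FPKM, against 2.14 and 3.40 FPKM for Slamf1, which encodes CD150. Summed over lists of marker genes, 16 neutrophil genes reached 8677 and 12095 FPKM, and 14 long-term stem cell genes 234 and 159.9 FPKM. The make-up of the sorted cells was not tested. The levels below therefore cannot be taken as those of LT-HSCs alone, and the values describe the cells as sorted. In such bulk RNA, fewer dividing cells and less of a transcript per dividing cell cannot be told apart.

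None of the 44 replication genes differed by as much as 1.5-fold in RNA level between the 2 libraries. Differences are knockout-labelled minus wild type, on the log2(FPKM + 1) scale. At least 1.5-fold higher were 0 of 44, beside 6.11% of the 11985 genes whose mean reached 1 FPKM, and at least 1.5-fold lower were 0 of 44, beside 6.13% of those genes. Either way the share of all genes was 12.2% at 1.5-fold, 10.3% among genes whose mean reached 5 FPKM, and 2.76% at 2-fold, which no member passed. The median difference was 0.01 over the members and 0.01 over all genes tested, with 23 members above 0 (50.8% of all genes tested) and 21 below (49.0%). Differences ran from −0.41 for Rpa2 to 0.51 for Rrm2. They had an interquartile range of 0.28, against 0.46 over all genes tested and 0.43 over the genes whose mean reached 5 FPKM, a level that every member passed. Within 1.25-fold were 40 of 44 members, beside 65.0% of all genes tested and 67.2% of those whose mean reached 5 FPKM. The 4 members outside 1.25-fold were Rrm2 and Pola1, which were higher in the knockout-labelled library, and Rpa2 and Rpa3, which were lower. Orc1, at a ratio of 1.29 without the added 1 FPKM, lay just inside on this scale. When the libraries were scaled to the same FPKM sum, the median of all genes moved to 0.18, that of the members to 0.19, and 34 members were above 0 and 10 below. Rrm2 and Pola1 were then at least 1.5-fold higher, as were 12.3% of all genes, with 3.31% at least 1.5-fold lower.

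**Figure D1:**
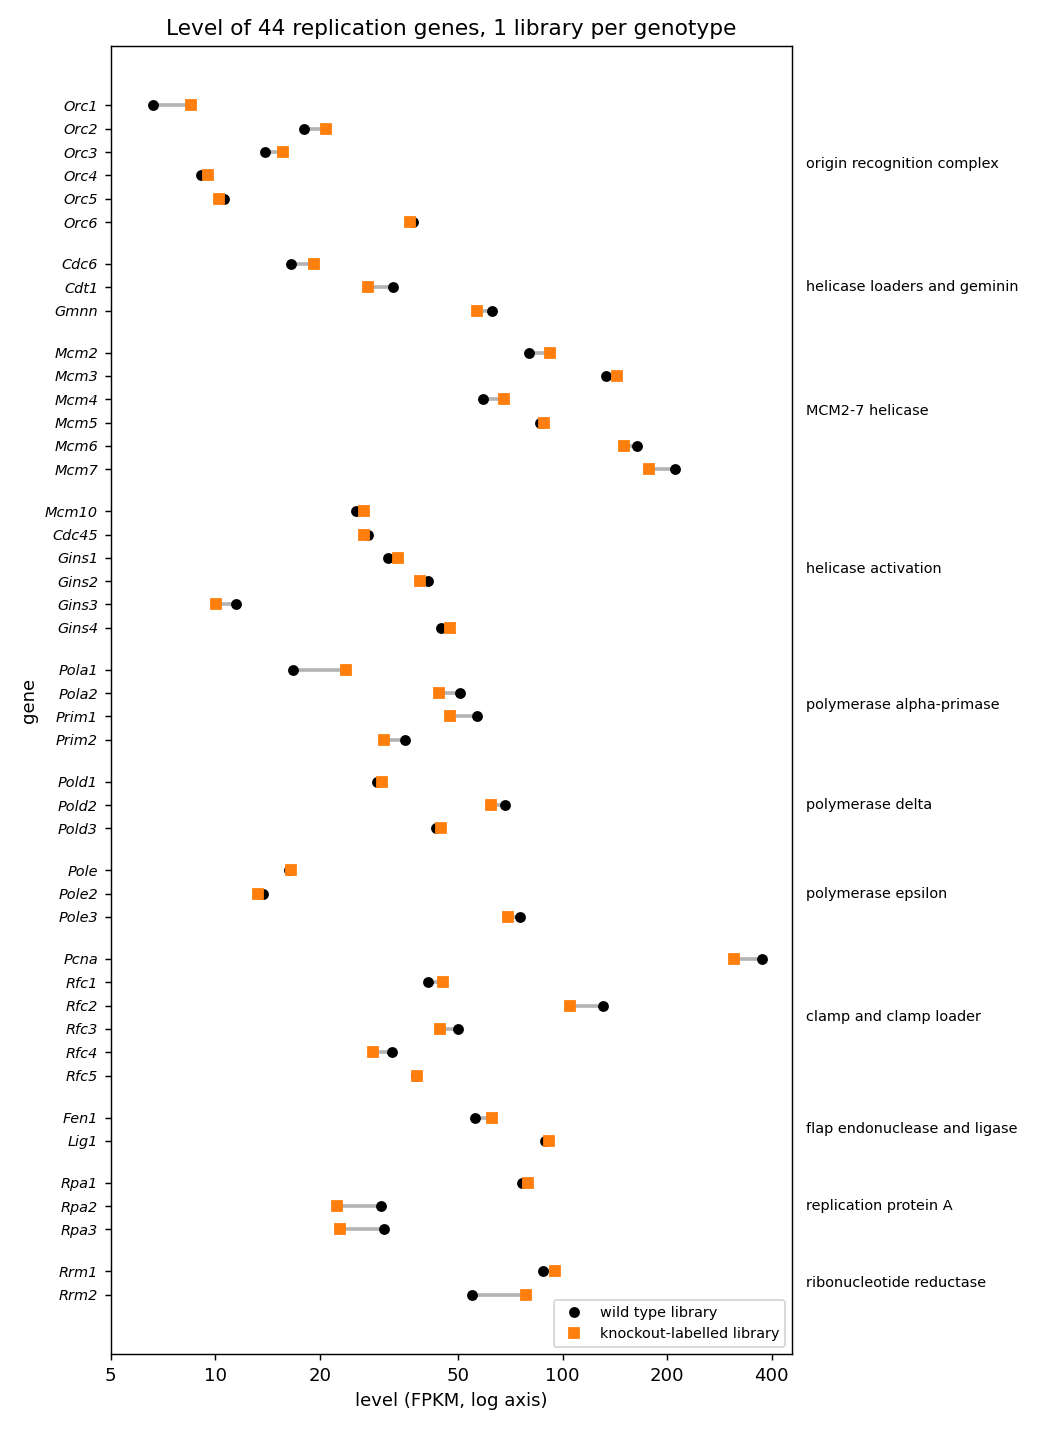
Level of each member (FPKM, log axis) in the wild type library (circles) and the knockout-labelled library (squares), grouped by role; a grey line joins both values of a gene, and there is 1 library per genotype. Levels span from 6.62 FPKM for Orc1 to 375 FPKM for Pcna, and the gap between libraries is small beside that span.

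The members stood high among the transcripts of these cells. In the wild type library 19 of the 44 lay in the top 10% of listed genes by FPKM and 44 in the top 50%, and in the knockout-labelled library 16 and 44. The order of levels was almost the same in both libraries, with a Spearman correlation of 0.99 over the 44 genes, which share the same libraries. Pcna, Mcm7, Mcm6, Mcm3 and Rfc2 were the 5 most abundant in each, and together they made up 38.7% (wild type) and 35.3% (knockout-labelled) of the members' summed FPKM. Orc1, Orc4, Orc5, Gins3 and Pole2 were the 5 least abundant in each. The summed level of all members was 2617 and 2513 FPKM, or 0.453% and 0.497% of all FPKM.

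Promoter sequence was compared with the levels and differences, since E2F control is a textbook feature of replication genes. Of the 44 members, 36 had an entry in the RefSeq promoter sequences of build GRCm38.p6, and the 250 bases upstream of the farthest upstream start were searched on both strands. Bases just after that start were found in a GENCODE transcript of the gene for 27 of the 36. For the rest, the start used was not borne out by that annotation. An exact E2F word, any of TTTCCCGC, TTTGGCGC, TTTCGCGC and TTTGCCGC, was present upstream of 9 of the 36 members (25%), against 1.92% of 27025 genes in the table and 3.65% of the 9512 whose mean reached 1 FPKM. The CCAAT box, CCAAT, was found upstream of 61.1% of members, 34.5% of all genes and 37.5% of the expressed genes. The GC box GGGCGG was found upstream of 66.7% of members and 58.7% of expressed genes, and the CHR words TTTGAA and TTCGAA upstream of 16.7% and 12.6%. No entry was used for Gmnn, Mcm4, Gins1, Gins2, Gins4, Prim2, Pole and Rfc2.

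The 9 stretches that hold an exact E2F word are shown 5′ to 3′ on the gene's strand, because they are what these promoters share, with the E2F word in capitals (a word on the other strand reads as its reverse complement). Overlapping words in Mcm5 and Mcm6 run together.
Orc1, chr4:108579411-108579450, plus strand: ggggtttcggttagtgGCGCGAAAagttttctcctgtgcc
Orc3, chr4:34614960-34614999, minus strand: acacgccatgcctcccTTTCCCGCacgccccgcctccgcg
Cdc6, chr11:98907997-98908036, plus strand: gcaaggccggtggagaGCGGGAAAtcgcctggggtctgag
Mcm5, chr8:75109340-75109383, plus strand: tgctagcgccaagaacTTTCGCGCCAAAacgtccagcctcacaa
Mcm6, chr1:128359729-128359831, minus strand: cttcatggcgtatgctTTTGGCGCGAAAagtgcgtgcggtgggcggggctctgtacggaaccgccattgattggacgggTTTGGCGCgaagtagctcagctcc
Mcm7, chr5:138172025-138172064, minus strand: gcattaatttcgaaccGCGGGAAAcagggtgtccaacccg
Gins3, chr8:95633502-95633541, plus strand: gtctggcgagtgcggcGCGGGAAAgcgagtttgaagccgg
Pola1, chrX:93632270-93632309, minus strand: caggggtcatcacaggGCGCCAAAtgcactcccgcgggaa
Rfc3, chr5:151651209-151651234, minus strand: aagtgacgtcgcacgcTTTCGCGCtc

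The differences of members with and without such a word overlapped over most of their range. The 9 genes with a word had a median difference of 0.04, from −0.24 for Mcm7 to 0.49 for Pola1, and the 27 without had a median of 0.01, from −0.41 to 0.51. By level, the median of the mean FPKM was 20.3 for the 9 with a word and 43.1 for the 27 without, which was not tested. Among the 27 without were 3 of the 4 members with the largest differences, Rrm2, Rpa2 and Rpa3. Their last 100 bases before the start are shown for comparison, with CCAAT boxes in capitals (ATTGG where the box lies on the other strand). A missing word says only that these letters are not in this window.
Rrm2, chr12:24708154-24708253, plus strand: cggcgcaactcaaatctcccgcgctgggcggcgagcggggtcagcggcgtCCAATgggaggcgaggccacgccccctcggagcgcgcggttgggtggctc
Rpa2, chr4:132768260-132768359, plus strand: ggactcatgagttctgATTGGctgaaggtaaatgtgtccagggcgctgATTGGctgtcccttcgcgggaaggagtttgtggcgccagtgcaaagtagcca
Rpa3, chr6:8259142-8259241, minus strand: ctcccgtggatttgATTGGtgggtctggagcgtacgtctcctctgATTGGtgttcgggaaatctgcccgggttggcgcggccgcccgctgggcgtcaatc

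The origin recognition complex, which binds origins and recruits the loaders, held the 2 least abundant wild type members, Orc1 and Orc4. Orc1, an ATPase subunit, was listed at 6.62 and 8.52 FPKM, a ratio of 1.29 (95% counting interval 1.10 to 1.51, from about 302 and 365 reads). Orc2 stood at 18.0 and 20.8 FPKM, and Orc3 at 13.9 and 15.6 FPKM. These 3 subunits were higher in the knockout-labelled library with intervals that lay above 1. Orc4 (9.12 and 9.55 FPKM) and Orc5 (10.6 and 10.2 FPKM) had intervals that included 1. Orc6, the small subunit that is only loosely tied to the rest of the complex, was the most abundant at 37.0 and 36.3 FPKM. Orc6 exceeded Orc1 5.59-fold (wild type) and 4.26-fold (knockout-labelled), on the FPKM scale, which is per length.

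The loaders of the helicase differed in opposite directions. Cdc6, an ATPase that joins the origin complex, was listed at 16.6 and 19.3 FPKM, a ratio of 1.16 (1.07 to 1.26). Cdt1, which brings the helicase to the origin, was listed at 32.5 and 27.6 FPKM, a ratio of 0.850 (0.777 to 0.9305). Geminin, encoded by Gmnn, binds Cdt1 and so blocks licensing of origins after S phase has begun. Its transcript stood at 62.7 and 56.5 FPKM, a ratio of 0.901 (0.818 to 0.993). The Gmnn to Cdt1 ratio of levels was 1.93 (wild type) and 2.05 (knockout-labelled), so Gmnn exceeded Cdt1 in both. With equal FPKM sums Cdt1 stayed under a ratio of 1 (0.970), while Gmnn was at 1.03.

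The MCM2-7 helicase, a ring of 6 related ATPases, was among the most abundant complexes and split within itself. Mcm7 was listed at 210.3 and 177 FPKM, a ratio of 0.844 (0.816 to 0.873), and Mcm6 at 164 and 150.5 FPKM, a ratio of 0.9195 (0.889 to 0.951). Mcm2 went the other way at 80.0 and 91.8 FPKM, a ratio of 1.15 (1.10 to 1.20), as did Mcm4 at 58.9 and 67.7 FPKM, also 1.15 (1.10 to 1.21). Mcm3 stood at 133 and 143 FPKM, with an interval above 1 (1.04 to 1.12), and Mcm5 at 85.9 and 88.1 FPKM. By their wild type levels, the 2 most abundant subunits were lower and the 2 least abundant higher in the knockout-labelled library, although with equal FPKM sums Mcm6 was at a ratio of 1.05 and Mcm7 at 0.963. Ranked by the knockout-labelled library, the 2 least abundant were Mcm4 and Mcm5, and the interval of Mcm5 included 1 (0.984 to 1.07). The span from Mcm4 to Mcm7 was 3.57-fold (wild type) and 2.62-fold (knockout-labelled). Summed over the 6 subunits, the level was 732 and 719 FPKM.

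On the deposited FPKM scale, the factors that turn the loaded ring into a moving helicase had intervals that all included 1. Mcm10, which helps start unwinding, was listed at 25.4 and 26.8 FPKM. Cdc45, a subunit of the active helicase, stood at 27.5 and 26.8 FPKM. The 4 GINS subunits form the other part of that helicase. Gins4 (44.8 and 47.3 FPKM) and Gins1 (31.5 and 33.7 FPKM) lay slightly higher, and Gins2 (40.9 and 38.8 FPKM) slightly lower, in the knockout-labelled library. Gins3 was the least abundant of the 4 at 11.5 and 10.1 FPKM, a ratio of 0.876 (0.757 to 1.01). With equal FPKM sums the ratios were 1.21 for Mcm10 and 1.11 for Cdc45. Those of the GINS genes were then 1.22 for Gins1, 1.08 for Gins2, 0.999 for Gins3 and 1.21 for Gins4.

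Polymerase alpha-primase, which makes the short RNA-DNA primers, held 1 subunit that was higher and 3 that were lower in the knockout-labelled library. Pola1, the catalytic polymerase subunit, was listed at 16.7 and 23.8 FPKM, a ratio of 1.42 (1.33 to 1.53, from about 1358 and 1814 reads). The partners were Prim1, the catalytic primase, at 56.8 and 47.5 FPKM with a ratio of 0.837 (0.770 to 0.909), Prim2 at 35.2 and 30.7 FPKM, and Pola2 at 50.6 and 44.1 FPKM. The counting intervals of all 4 excluded 1, but with equal FPKM sums Pola2 and Prim2 came to ratios of 0.995 and 0.996. The Prim1 to Pola1 ratio of levels was 3.39 (wild type) and 1.99 (knockout-labelled). Pola1 was the only member on the X chromosome, and Xist, the RNA of the inactive X, stood at 5.38 and 44.2 FPKM. The median difference of the 388 X-linked genes tested was 0.01, the same to 2 decimals as that of the 11571 genes on other chromosomes. A difference at least as high as that of Pola1 was reached by 12.6% of X-linked genes and 8.83% of the others. The X-linked median was not a test of sex. A difference in the sex of the animals between the libraries was not tested and cannot be told apart from genotype.

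On the deposited FPKM scale, the ratios of the polymerase delta and epsilon subunits lay between 0.914 for Pold2 and 1.03 for Pold3. Polymerase delta copies the lagging strand, and its catalytic subunit gene Pold1 stood at 29.3 and 30.2 FPKM, with Pold3 at 43.2 and 44.6 FPKM. Pold2 was slightly lower at 68.1 and 62.2 FPKM, a ratio of 0.914 (0.851 to 0.981). With equal FPKM sums the ratios were 1.17 for Pold1, 1.04 for Pold2 and 1.18 for Pold3. Polymerase epsilon copies the leading strand, and its catalytic subunit gene Pole was listed at 16.4 and 16.5 FPKM, a ratio of 1.01 (0.943 to 1.08), which was 1.15 with equal FPKM sums. Pole2 stood at 13.7 and 13.2 FPKM. Pole3, a small histone-fold subunit that also works in chromatin complexes, was 4.62-fold (wild type) and 4.24-fold (knockout-labelled) more abundant than Pole, at 75.5 and 69.8 FPKM. With equal FPKM sums Pole2 came to a ratio of 1.10 and Pole3 to 1.05.

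The sliding clamp and most small subunits of its loader were lower in the knockout-labelled library, although with equal FPKM sums Rfc3 came to a ratio of 1.01 and Rfc4 to 1.0022, and both lay just above 0 after centring on length. Pcna, the clamp that holds polymerases on DNA and the most abundant member, was listed at 375 and 311 FPKM, a ratio of 0.830 (0.801 to 0.861). Rfc2 followed with 131 and 105 FPKM, a ratio of 0.801 (0.758 to 0.847), and Rfc3 (50.1 and 44.5 FPKM) and Rfc4 (32.3 and 28.4 FPKM) had intervals below 1. Rfc5 was level at 37.9 and 38.1 FPKM. Rfc1, the large subunit of the loader, was higher at 40.9 and 45.3 FPKM, a ratio of 1.11 (1.05 to 1.17). The Pcna to Rfc1 ratio of levels was 9.17 (wild type) and 6.87 (knockout-labelled).

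Fen1 and Lig1, which trim and join the fragments of the lagging strand, were slightly higher in the knockout-labelled library. Fen1, the flap endonuclease, was listed at 56.0 and 62.4 FPKM, a ratio of 1.11 (1.04 to 1.19), and the ligase gene Lig1 at 89.2 and 91.6 FPKM with an interval that included 1. Replication protein A, the trimer that coats single-stranded DNA, was uneven. Rpa1, its large subunit, stood at 76.3 and 79.3 FPKM, while Rpa2 was listed at 30.1 and 22.3 FPKM, a ratio of 0.743 (0.665 to 0.828), and Rpa3 at 30.5 and 22.9 FPKM, a ratio of 0.749 (0.623 to 0.901). Rpa1 exceeded Rpa2 2.54-fold (wild type) and 3.55-fold (knockout-labelled).

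Ribonucleotide reductase makes the building blocks of DNA, and its small subunit showed the highest difference of all members. Rrm2, the small subunit, which is known to be limited to dividing cells, was listed at 54.9 and 78.3 FPKM, a ratio of 1.43 (1.34 to 1.52, from about 1813 and 2423 reads). Rrm1, the large subunit, was listed at 87.9 and 94.99 FPKM, a ratio of 1.08 (1.04 to 1.12). The 2 intervals did not overlap, and the Rrm2 to Rrm1 ratio of levels was 0.625 (wild type) and 0.825 (knockout-labelled). Of all genes tested, 8.24% had a difference at least as high as that of Rrm2.

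Over the 44 members the counting interval lay above a ratio of 1 for 12 genes, beside 31.1% of all genes tested, and below 1 for 14, beside 27.1%. Among genes whose mean reached 5 FPKM the shares were 34.6% and 29.6%. In all, 26 members had an interval that excluded 1, beside 58.2% of all genes tested and 64.3% of those whose mean reached 5 FPKM. Estimated reads of the members ran from 289 to 7580 in the wild type and from 201 to 6476 in the knockout-labelled library. The intervals cover counting error only and rest on estimated reads.

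**Figure D2:**
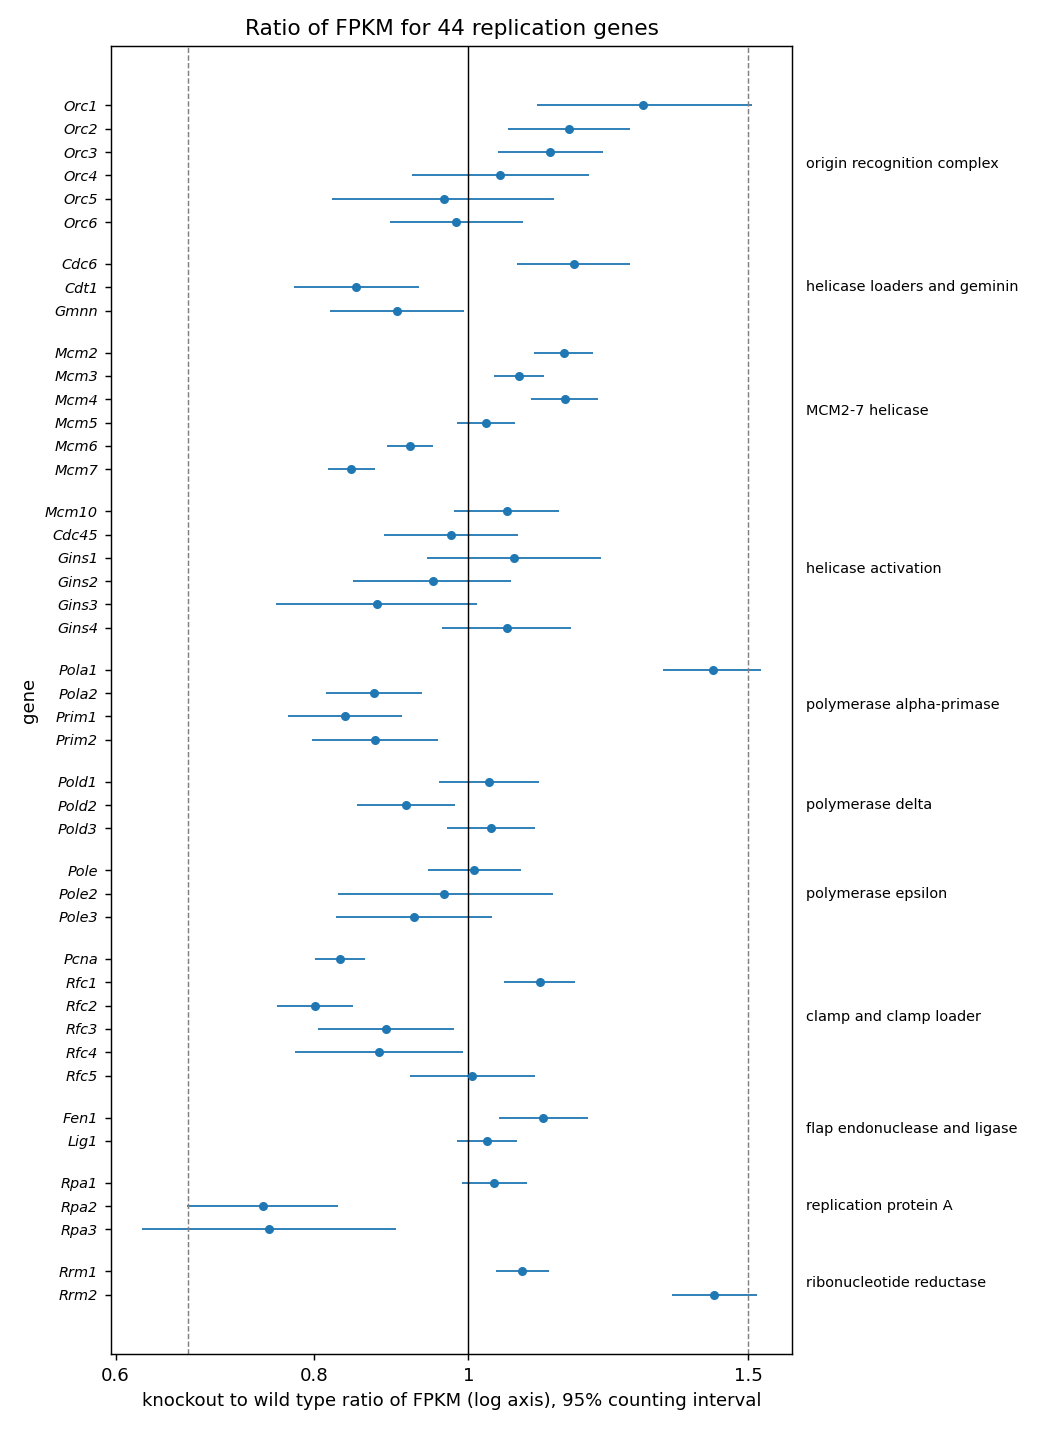
Knockout to wild type ratio of FPKM (log axis) for each member, with its 95% counting interval as a bar; the solid line marks a ratio of 1 and dashed lines a difference of 1.5-fold. Rrm2 (1.43) and Pola1 (1.42) lie farthest right and Rpa2 (0.743) and Rpa3 (0.749) farthest left, and all points lie inside the dashed lines.

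Longer transcripts tended to have higher differences, among the members and over all genes. The Spearman correlation of length and difference was 0.62 over the 44 members and 0.43 over all 11985 genes tested, and genes of a library share its depth and base composition. Members under 2000 bases had a median difference of −0.15, against −0.18 for all genes of that length. Between 2000 and 3000 bases the medians were −0.05 and −0.01, and from 3000 bases upward 0.09 and 0.15. In 6 of the 11 role groups the longest transcript had the highest difference, among them Pola1, Rfc1, Rpa1 and Mcm4. The shortest had the lowest in 4 of the 11 (Mcm7, Prim1, Pold2 and Pole3). In the groups of 2 genes the shorter transcript, Fen1 or Rrm2, had the higher difference. The groups hold only 2 to 6 genes, and how often random order would give such counts was not computed.

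After the median of the 200 genes nearest in length was subtracted from each gene, the length relation over the members was −0.11. The median of the members was then 0.02, with 26 of 44 above 0, beside 50.1% of all genes. Rrm2 kept the highest value at 0.56, a value reached by 5.58% of all genes, and Pola1 was at 0.32, reached by 14.9%. The short transcript Gins1, at 0.33, came between them. Rpa2 had the lowest value at −0.30, which 15.6% of all genes were at or under. Rpa3, with a transcript of 655 bases, moved to −0.07, and Pcna from −0.27 to −0.09. Pole, the longest transcript at 7167 bases, moved from 0.01 to −0.27. In all, 9 members that were below 0 before centring were above 0 after it (Orc5, Orc6, Gmnn, Gins2, Pold2, Pole2, Pole3, Rfc3 and Rfc4), and 6 that were above 0 were below 0 after it (Orc3, Mcm5, Mcm10, Pold1, Pole and Rfc1).

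**Figure D3:**
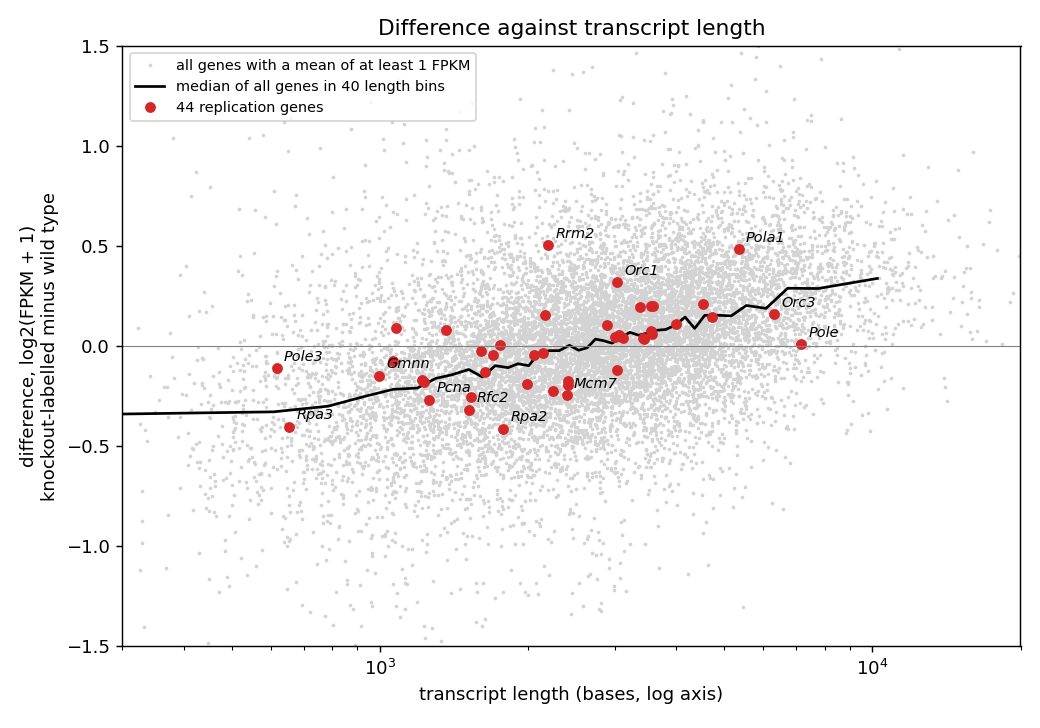
Difference on the log2(FPKM + 1) scale against transcript length (bases, log axis) for the 44 members (red) and all genes whose mean reached 1 FPKM (grey, within the plotted range), with the median of all genes in 40 length bins (black line). Members scatter around the black line, with Rrm2 farthest above it and Rpa2 farthest below it.

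Few other genes of the replication pathway passed 1.5-fold. Within 1.25-fold were 11 of 18 other subunits and paralogs and 11 of 18 E2F, DP and pocket protein genes, beside 65.0% of all genes tested. For firing kinases and activation factors it was 14 of 18, for fork protection and checkpoint 14 of 17 and for nucleotide supply 16 of 22. Among 18 other subunits and paralogs the median was 0.11, and 0 lay 1.5-fold up and 1 lay 1.5-fold down, beside 6.11% and 6.13% of all genes tested. The 1 gene was lost from that count with equal FPKM sums and with length centring. It was Pold4, the smallest subunit of polymerase delta, at 39.7 and 23.3 FPKM, a ratio of 0.588 (0.508 to 0.680). The topoisomerase genes Top1 (56.7 and 82.9 FPKM) and Top2b (47.8 and 65.9 FPKM), whose products relax twisted DNA, were higher. Among 18 firing kinases and activation factors, 0 passed 1.5-fold in either direction, with a median of 0.23, and 16 of 18 were above 0, beside 50.8% of all genes. After centring on length the median was 0.14. Dbf4, the activator of the Cdc7 kinase, stood at 30 and 38.8 FPKM, the cyclin gene Ccne2 at 15.4 and 20 FPKM and the ubiquitin ligase scaffold gene Cul4b at 11.7 and 17.5 FPKM.

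Among 17 fork protection and checkpoint genes 0 passed 1.5-fold, with a median of 0.13, and the largest differences were in Hus1 (5.33 and 7.73 FPKM), Supt16 (50.4 and 68.1 FPKM) and Chaf1a (32.8 and 42.5 FPKM). Hus1 belongs to a checkpoint clamp, and the products of the other 2 genes handle histones during replication. Among 22 nucleotide supply genes 0 passed 1.5-fold, with a median of −0.0043. The thymidine kinase gene Tk1 was lower at 42.7 and 29.6 FPKM, as was Impdh2, of guanine nucleotide synthesis, at 268 and 200.9 FPKM, while Cad, of pyrimidine synthesis, was higher at 17.4 and 23.6 FPKM. Rrm2 and Tk1, both known as S phase genes of nucleotide supply, thus differed in opposite directions. Among 18 E2F, DP and pocket protein genes 0 passed 1.5-fold on the log2(FPKM + 1) scale, with a median of 0.17. That count depends on the added 1 FPKM, since E2f8 and Lin54 had plain FPKM ratios of 1.51 and 1.53, and 2 genes passed with 0.1 FPKM added. E2f8, a repressive E2F factor, stood at 36.9 and 55.7 FPKM, Lin54 at 6.87 and 10.5 FPKM and Lin37 at 45.0 and 31.4 FPKM, the last 2 being subunits of a complex that controls cell cycle genes.

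Mitosis genes had a higher median than the members and a wider spread. Their counting intervals lay above a ratio of 1 for 19 of 40 genes and below 1 for 7. The shares of all genes tested were 31.1% and 27.1%. The median over 40 mitosis genes was 0.09, and 2 lay 1.5-fold up and 0 down, beside 6.11% and 6.13% of all genes tested. The count upward was 1 with length centring and 8 with equal FPKM sums. These 2 were the condensin gene Smc2 (23.6 and 40.4 FPKM) and the kinetochore gene Knl1 (7.66 and 13.3 FPKM), followed by Anln, of cell division, at 14.1 and 20.8 FPKM. The median length of the mitosis genes was 3101 bases, against 2320 bases for the replication genes. After centring on length the medians were 0.09 and 0.02. The difference between both lists was not tested.

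**Figure D4:**
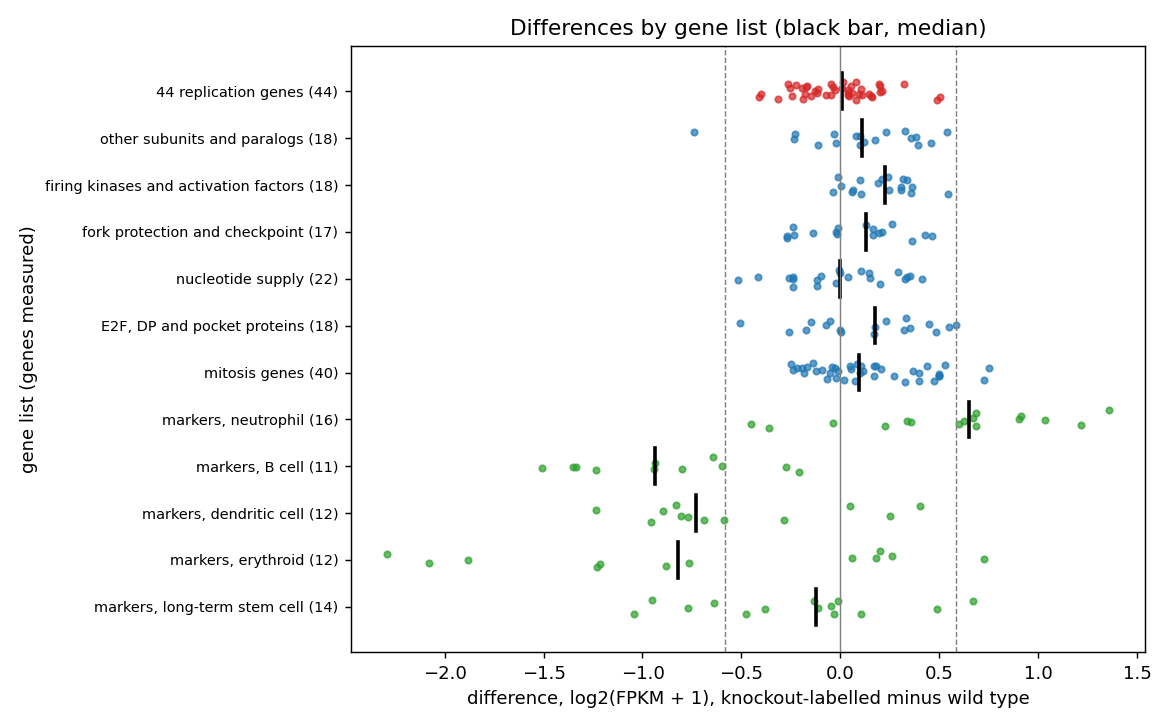
Difference on the log2(FPKM + 1) scale for each gene of the replication list (red), related lists (blue) and marker lists (green) whose mean reached 1 FPKM; black bars are medians, vertical scatter has no meaning, and dashed lines mark 1.5-fold. The replication genes lie between −0.41 and 0.51, while neutrophil markers lie mostly to the right and B cell markers to the left.

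Marker genes of blood cell types, long-term stem cells among them, differed more than the replication genes in the same 2 libraries. Earlier results of these data were known when the marker lists were picked, so the lists are not an independent contrast. Among all genes tested, 6.11% passed 1.5-fold upward and 6.13% downward. Of 16 neutrophil markers, 10 were at least 1.5-fold higher, with a summed level of 8677 and 12095 FPKM. Past 1.5-fold in the other direction were 9 of 11 measured B cell markers (sums over 12 listed genes 138 and 64.8 FPKM), 8 of 12 dendritic cell markers (584 and 353 FPKM), and 7 of 12 erythroid markers (1530.1 and 492 FPKM), with 1 further erythroid marker past it upward. Among 14 long-term stem cell markers 4 lay 1.5-fold down and 1 up, with sums of 234 and 159.9 FPKM. Some markers went against their list: 3 neutrophil markers were below 0, and 3 dendritic cell, 5 erythroid and 3 long-term stem cell markers were above 0. No marker of these lists was at 0 in either library. The part of these cell types in the levels of the replication genes was not tested.

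Several members lie close to other genes, which bears on how their reads were counted. In the basic set of the GENCODE annotation of build GRCm38, 11 of the 44 share exon bases with a protein-coding gene on the opposite strand. Over all transcripts of that basic set, Gins2 shares 2758 bases with Gse1 and Rfc2 952 bases with Lat2. Mcm7 shares 321 bases with Ap4m1 and 64 with Cops6, Fen1 130 with Tmem258 and Orc6 114 with Vps35. Fen1 also shares 1908 bases with the antisense gene Gm10143, which had no value here. Lat2 was lower in the knockout-labelled library (38.2 and 30.5 FPKM), as was Rfc2. Gse1 was higher (34.7 and 41.8 FPKM), while Gins2 was slightly lower. Whether strand was used in counting is not given in the sources used here, so reads of the shared bases cannot be told apart. A protein-coding neighbour that starts within 1000 bases upstream and reads the other way was found for 12 members. Of these neighbours 11 reached a mean of 1 FPKM, with a median difference of −0.10. Of the 11, 0 passed 1.5-fold, beside 12.2% of all genes tested, and so few genes cannot show a departure from that share. Prkdc, the neighbour of Mcm4, was listed at 4.98 and 5.45 FPKM, Prpf38a, that of Orc1, at 39.5 and 36.4 FPKM, and Tmem258, that of Fen1, at 34.2 and 24.2 FPKM. Fen1 was higher and Tmem258 lower in the knockout-labelled library.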

How the data were processed

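RNA of 2 samples, 1 library per genotype, was sequenced on a BGISEQ-500 instrument, per the series' design text. The deposited values are FPKM per gene with a transcript length, which the authors computed. The submitters' processing notes list RSEM, HISAT2, HISAT and mouse build mm9. For these tools, version, settings and use of strand were not given in the sources used here. Symbols came from RefSeq (GRCm38.p6), which matched 17169 of 17216 identifiers. Coordinates of printed sequences are those of that RefSeq build, not of the files.

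Genes missing from 1 file were set to 0 there. Differences were log2(FPKM + 1), which understates low genes, over the 11985 genes whose mean reached 1 FPKM, and ratios used no pseudocount. With 1 library per genotype no test was made, and genes were counted by size (1.5-fold). Reads were estimated from the step between low FPKM values: FPKM times length, less 35 and 43 bases, fell on multiples of 65.5 and 69.7, and 88.7% of 194 and 86.3% of 182 values lay within 0.15 of a whole read. Step and offset were chosen on these same values. Exact conditional 95% intervals of the ratio were computed from the rounded estimates and cover counting error only. Length centring subtracted, for each gene, the median over its 200 neighbours in length. The calculations were tested on simulated data. The software was matplotlib 3.10.9, scipy 1.17.1, pandas 2.3.3 and numpy 2.4.6 under Python 3.11.15.

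All 44 members were named. Of each other list of the pathway, the 3 genes with the largest absolute difference at a mean of 5 FPKM or more were named, with any gene past 1.5-fold. The sort gate genes, Xist and the neighbouring genes were named outside that rule, after their values were seen. The members and lists were chosen with earlier results of these data known. Alternatives changed the scaling, length centring, low-value filter or pseudocount.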

Additional observations from a re-analysis of the deposited data

How the results depend on the processing

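No paired analysis was possible because each genotype had 1 library. The count of members at least 1.5-fold higher or lower was 0 with a pseudocount of 0.1 or 5 FPKM, with no filter, with a mean of at least 5 FPKM, with equal upper quartiles and after length centring, and at least 2-fold it was 0 under every alternative run. With equal FPKM sums, which multiply the knockout-labelled library by 1.14 and moved the median of all genes to 0.18, 2 members were at least 1.5-fold higher and 34 of 44 were above 0. The members' median was then 0.19, and the role medians were 0.29 for the origin recognition complex, 0.0399 for the loaders and geminin, 0.26 for MCM2-7, 0.20 for helicase activation, −0.0063 for polymerase alpha-primase, 0.23 for polymerase delta, 0.13 for polymerase epsilon, 0.0103 for the clamp and its loader, 0.28 for flap endonuclease and ligase, −0.22 for replication protein A and 0.50 for ribonucleotide reductase. Equal sums gave list medians of 0.29 for other subunits, 0.40 for firing factors, 0.31 for fork protection, 0.18 for nucleotide supply, 0.35 for E2F and pocket proteins and 0.28 for mitosis. Counts at least 1.5-fold higher were then 2, 1, 2, 1, 4 and 8 in that order, and 0 other subunits were lower. Under length centring the role medians that moved by over 0.1 were those of the loaders and geminin (0.0701, from −0.15), the clamp and its loader (0.0016, from −0.17) and replication protein A (−0.0712, from −0.40), 0 other subunits were at least 1.5-fold lower, and 1 mitosis gene was higher. A pseudocount of 5 FPKM left 1 mitosis gene higher, and one of 0.1 FPKM gave 2 E2F and pocket protein genes higher. The length-centred median of the members was 0.02 with 100 nearest genes, 0.00 with 400 and 0.01 with genes from outside the members. With 1 library per genotype, depth limits each ratio to its counting interval, and the spread between animals is unknown.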
